A study of Mus musculus with 12 samples.

Results

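The panel of LPS- and interferon-inducible metabolic genes held 10 members, chosen by symbol among the 55401 genes of the count table. They were the nitric oxide synthase Nos2, the arginases Arg1 and Arg2, the arginine-recycling enzyme Ass1, the cofactor enzyme Gch1, the arginine transporter Slc7a2, the tryptophan-degrading enzymes Ido1 and Ido2, the itaconate-forming enzyme Acod1 and the mitochondrial superoxide dismutase Sod2. Their mRNA was measured by sequencing in all 12 libraries, which formed 4 groups of 3.

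All libraries came from Sp37A3, a dendritic cell line from mouse spleen that was grown with GM-CSF and M-CSF. CtrV cells had received an empty vector and express Siglec-E, an inhibitory receptor for sialic acids. EKO cells carried a CRISPR/Cas9 lentiviral edit of Siglece and were a pool of several single-cell clones. Every group was stimulated with LPS and had 24 h of processing time, either after pulsing with the antigen ovalbumin (OVA) or unpulsed. There was no group without LPS, so whether a gene was induced by LPS could not be measured. Each genotype was 1 line, so the edit, the choice of clones and the vector cannot be told apart.

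In myeloid cells, LPS and interferons are known to switch on a small set of metabolic enzymes. NOS2 oxidises arginine to nitric oxide and citrulline and needs tetrahydrobiopterin, whose synthesis starts with GCH1. ASS1 takes citrulline back towards arginine, SLC7A2 imports arginine, and the arginases consume the same substrate to form ornithine and urea. IDO1 and IDO2 open the kynurenine pathway, ACOD1 turns the citrate-cycle intermediate cis-aconitate into itaconate, and SOD2 removes superoxide in mitochondria.

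Library totals ranged from 27116201 to 39698572 counts. Levels are given as CPM, counts scaled to a common library size with TMM factors. The smallest level taken as visible, 3 counts, equalled 0.0785 to 0.11 CPM. Siglece itself, on chromosome 7 from 43651070 to 43660161, had 150 to 163 CPM in CtrV libraries and 166 to 235 CPM in EKO libraries. Its mRNA was thus not lower under the knockout label (log2 fold change 0.31 ± 0.08 SE in OVA-pulsed cells, adjusted p = 0.011). An mRNA level reads neither an edit in the DNA nor the protein, so the label was not checked by it, and the cells are called EKO-labelled. By the study's account, the clones in the pool were checked for little or absent Siglec-E expression, a check that these counts cannot repeat. Both EKO-labelled libraries of replicate 1 stood apart from the other 4 EKO-labelled libraries on the second principal component, which held 7.11% of the variance (-18.8 and -20.5 against 1.15 to 18.3).

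Dendritic cell markers were present throughout, at a summed 24060 to 26370 CPM in every library, most of it from Cd74, which was not called. With OVA, 5 of the 10 were called higher in EKO-labelled cells, and Itgax and Ciita were lower. The higher ones were Flt3 (3.34-fold), Ccr7 (3.9-fold), Batf3 (3.19-fold), H2-Ab1 (1.43-fold) and H2-Aa (1.41-fold). Of all tested genes, 25.1% were called higher and 21.9% lower in that comparison. The Ccr7 libraries of the lines overlapped (50.4 to 182 CPM in CtrV, 132 to 534 CPM under the EKO label). In OVA-pulsed EKO-labelled cells, replicate 1 was the highest for Ccr7, Flt3 (7.35, 2.25 and 4.4 CPM) and Batf3 (14.8, 6.08 and 10.6 CPM). Without OVA, Batf3, H2-Ab1 and H2-Aa were called higher, but Flt3 (adjusted p = 0.1, edgeR) and Ccr7 (adjusted p = 0.29) were not called. Of the 8 macrophage and monocyte markers, 6 were called higher in EKO-labelled cells when OVA-pulsed, where 25.1% of all tested genes were. Adgre1 (log2 fold change -0.03 with OVA) and Mertk (-0.32) were not called with or without OVA. The 8 markers summed to 1424 to 1622 CPM in CtrV libraries, against 2098 to 2362 CPM under the EKO label. The called markers changed alongside the line differences given below, and their part in those differences was not tested. T cell markers summed to at most 0.27 CPM in CtrV libraries and at most 1.57 under the EKO label, with Cd3e and Cd3g at 0, B cell markers to at most 0.211 and 1.07 CPM, and neutrophil markers to at most 0.099 CPM with Ly6g, S100a8 and S100a9 at 0. Fibroblast markers reached at most 0.033 CPM with Col1a2, Col3a1 and Pdgfra at 0. The epithelial list had 20.8 to 33 CPM, nearly all Epcam, with Krt18 at 0.

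Nos2, Ass1, Gch1, Acod1 and Sod2 had over 1 CPM in every one of the 12 libraries, and these 5 were tested. Arg1, Arg2, Slc7a2, Ido1 and Ido2 stayed under the expression limit in every group and were not tested. In OVA-pulsed cells 4 of the 10 members were called higher under the EKO label, 0 lower, 1 was not called and 5 were untested. Among all 14079 tested genes, 47% were called in that comparison, 25.1% higher and 21.9% lower. The unpulsed comparison gave the same counts for the members, against 46.4% of all genes called, 24.5% higher and 21.9% lower. In each comparison the libraries of the lines did not overlap for 4 members, as for 52.9% of all tested genes with OVA and 47.1% without. The line difference was thus widespread, and the members are described by their sizes.

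Sequences before the RefSeq start were at hand for 4 of the 10 members, taken from RefSeq on GRCm38.p6. They are shown because 3 of these genes were higher in EKO-labelled cells and the fourth, Sod2, was not. Each reads 5′ to 3′ along the gene's strand and ends at the RefSeq start, or before the first exon that the GENCODE annotation places nearer. The Sod2 stretch lies inside the gene as GENCODE annotates it (13006846 to 13040063), whose start is placed further upstream. Capitals mark matches to the motifs named after them.

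Ass1, chr2:31470020-31470206, plus strand: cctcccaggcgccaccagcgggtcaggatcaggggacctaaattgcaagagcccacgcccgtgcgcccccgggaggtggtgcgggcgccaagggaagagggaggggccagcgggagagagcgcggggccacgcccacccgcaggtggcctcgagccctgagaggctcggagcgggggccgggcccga

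Acod1, chr14:103046762-103046976, plus strand: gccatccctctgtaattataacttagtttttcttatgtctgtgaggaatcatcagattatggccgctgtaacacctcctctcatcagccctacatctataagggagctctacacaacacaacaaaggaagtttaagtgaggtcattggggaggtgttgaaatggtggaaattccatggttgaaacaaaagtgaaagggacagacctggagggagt

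Gch1, chr14:47189414-47189663, minus strand: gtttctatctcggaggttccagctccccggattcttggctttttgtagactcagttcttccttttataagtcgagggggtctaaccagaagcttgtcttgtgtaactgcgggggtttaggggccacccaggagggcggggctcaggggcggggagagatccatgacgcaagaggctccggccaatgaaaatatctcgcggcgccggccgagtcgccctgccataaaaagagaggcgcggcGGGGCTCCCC

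Sod2, chr17:13007589-13007816, plus strand: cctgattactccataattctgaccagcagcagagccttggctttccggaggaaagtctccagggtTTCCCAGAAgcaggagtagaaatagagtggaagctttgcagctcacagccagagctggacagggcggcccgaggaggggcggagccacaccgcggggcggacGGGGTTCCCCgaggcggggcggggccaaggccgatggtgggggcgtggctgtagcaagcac

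The full 250 bases before each start were searched on both strands for the consensus of the interferon-stimulated response element, the gamma-activated site TTCNNNGAA, the antioxidant response element TGACNNNGC and the NF-kB consensus. These occur in 2.98%, 7.02%, 10.2% and 3.9% of 32851 mouse promoter windows of this length. Gch1 held an NF-kB match 10 to 1 bases before its start. Sod2, the member that was not called, held an NF-kB match on both strands 83 to 74 bases before its start and a gamma-activated site match 185 to 177 bases before it. Ass1 and Acod1, both called higher, held none of the 4 in this window. Only exact matches were counted, and whether any of them acts on these genes or bears on the line difference was not tested. The Ass1 window was 75.6% G and C and that of Acod1 44.4%.

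Nitric oxide synthesis was considered first. Nos2 (ENSMUSG00000020826, chromosome 11, 78920787 to 78960254) encodes the inducible synthase. Its level was 6.1, 6.37 and 6.01 CPM in unpulsed CtrV cells and 7.73, 6.34 and 4.77 CPM in OVA-pulsed CtrV cells for replicates 1, 2 and 3. In EKO-labelled cells it was 53, 68.6 and 50.2 CPM unpulsed and 69.9, 63 and 60.6 CPM OVA-pulsed. Every EKO-labelled library lay far above every CtrV library, and pulsed and unpulsed libraries of a line were mixed. The difference was 10.3-fold with OVA (log2 fold change 3.36 ± 0.13 SE, adjusted p = 2.7e-08, edgeR) and 9.25-fold without (3.21 ± 0.13, adjusted p = 4.6e-08). By absolute log2 fold change it ranked 108 of the 14079 tested genes in OVA-pulsed cells. Without the EKO-labelled libraries of replicate 1 the values were 3.39 and 3.34.

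**Figure D1:**
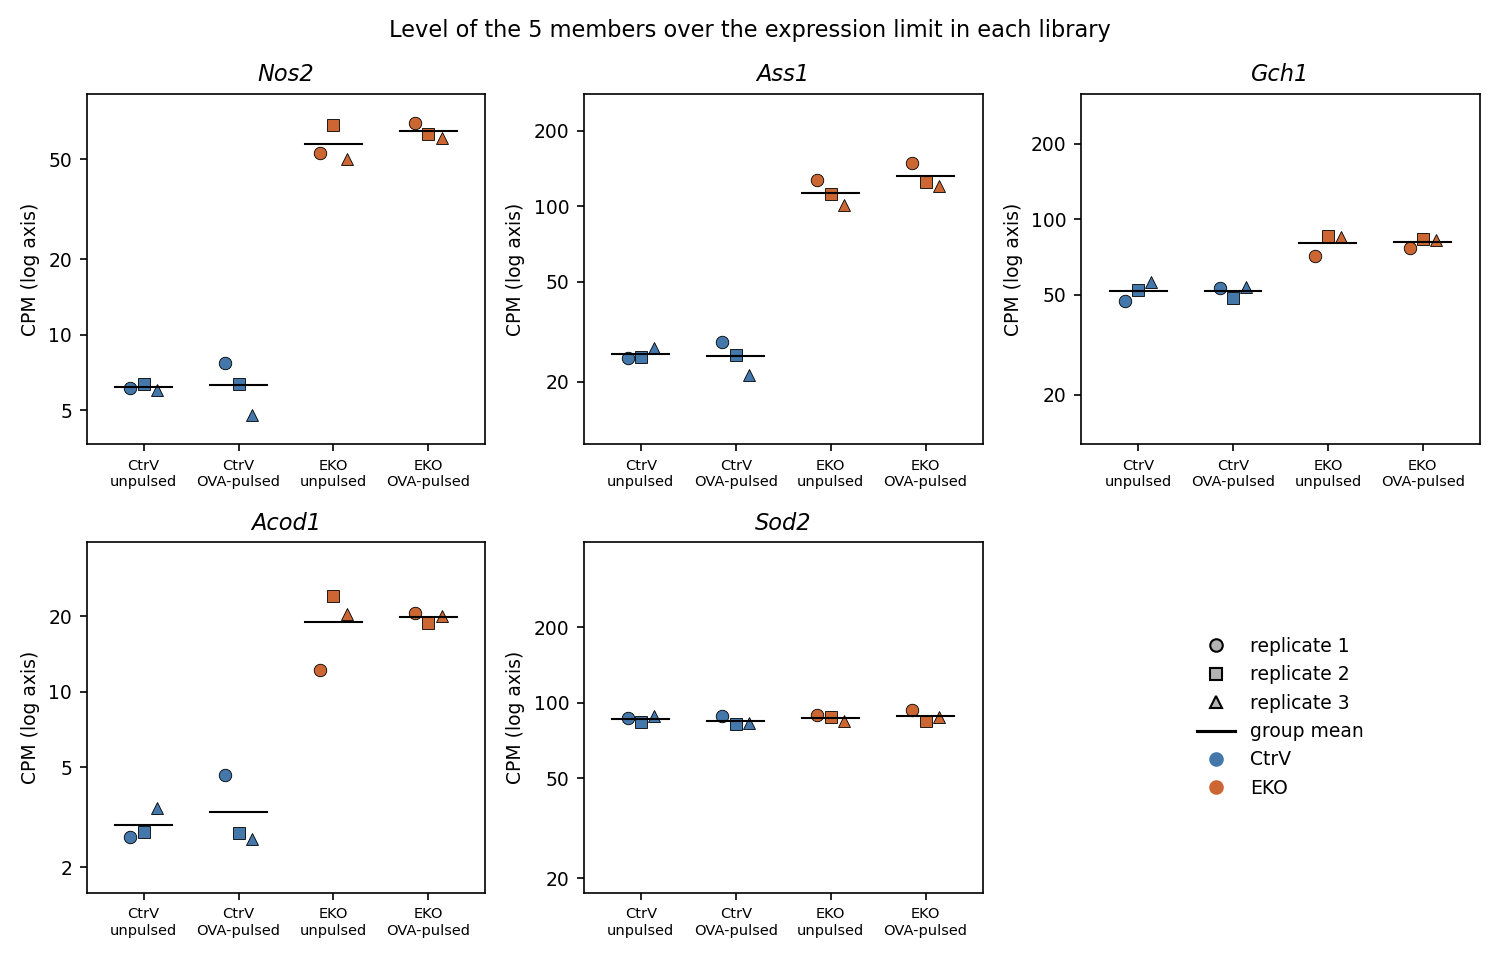
Levels of Nos2, Ass1, Gch1, Acod1 and Sod2 in CPM on log axes that all span the same ratio, by group, with a point per library (shape for the replicate number) and a line at the group mean of 3 libraries. The EKO-labelled points of Nos2, Ass1, Acod1 and Gch1 lie above all CtrV points, by far the most for Nos2 (50.2 to 69.9 against 4.77 to 7.73 CPM), while those of Sod2 overlap.

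Ass1 (ENSMUSG00000076441, chromosome 2, 31470207 to 31520672) encodes argininosuccinate synthase. In CtrV cells it had 24.8, 25.1 and 27.3 CPM unpulsed and 28.8, 25.6 and 21.2 CPM OVA-pulsed. EKO-labelled cells had 127, 112 and 100.99 CPM unpulsed and 149, 125 and 120 CPM OVA-pulsed. The lines did not overlap, and within EKO-labelled cells replicate 1 was the highest with and without OVA. The difference was 5.22-fold with OVA (log2 fold change 2.39 ± 0.09 SE, adjusted p = 2.7e-08) and 4.36-fold without (2.12 ± 0.09, adjusted p = 5.8e-08).

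The counting of Ass1 was shared with a copy. The processed pseudogene Gm5424 (chromosome 10, 62071123 to 62072362) contained 38.6% of the 50-base words of the Ass1 transcripts, and reads that fitted several places had been given to a single one. Gm5424 had 50.5 to 69.1 CPM in CtrV libraries and 235 to 345 CPM under the EKO label, more than Ass1 itself, so the level of either gene alone is uncertain. With the counts of both summed, an alternative chosen after seeing the data, levels were 71.7 to 97.9 CPM in CtrV libraries and 336 to 494 CPM under the EKO label. The log2 fold change of the sum was 2.4 ± 0.11 with OVA (adjusted p = 6.8e-08) and 2.11 ± 0.11 without (adjusted p = 1.5e-07), close to that of Ass1 counted alone.

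Gch1 (ENSMUSG00000037580, chromosome 14, 47153895 to 47189413) encodes GTP cyclohydrolase, the entry enzyme of tetrahydrobiopterin synthesis. It had 47, 52.4 and 55.9 CPM in unpulsed and 53.2, 48.5 and 53.7 CPM in OVA-pulsed CtrV cells. Its level was 71.1, 85.4 and 85.2 CPM in unpulsed and 76.6, 83.7 and 82.6 CPM in OVA-pulsed EKO-labelled cells. The lines did not overlap, but the step was far smaller than for Nos2 or Ass1. It was 1.56-fold both with OVA (log2 fold change 0.64 ± 0.07 SE, adjusted p = 2.7e-05) and without (0.64 ± 0.07, adjusted p = 3.2e-05). The call is lost if an absolute log2 difference of at least 1 is also asked for.

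Slc7a2 (ENSMUSG00000031596, chromosome 8, 40862396 to 40922308), which encodes the cationic amino acid transporter CAT-2, had 0 counts in all 12 libraries. Over the 3 libraries of a group, 3 counts would be 0.0295 to 0.0351 CPM, so a level of that order would have gone unseen. Among the other importers of cationic amino acids, Slc7a1 encodes CAT-1 and had a mean of 141 ± 9.9 CPM (SD, n = 3) in OVA-pulsed CtrV and 187 ± 24 CPM in OVA-pulsed EKO-labelled cells (log2 fold change 0.41, adjusted p = 0.038). It was named after its values were seen.

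The arginases were barely read. Arg1 (ENSMUSG00000019987, chromosome 10, 24915221 to 24927484), the cytosolic arginase, had 0 counts in all 12 libraries. For the 3 libraries of a group together, the 95% Poisson interval of 0 counts ended at 0.0362 to 0.0432 CPM, and 3 counts would be 0.0295 to 0.0351 CPM. Arg2 (ENSMUSG00000021125, chromosome 12, 79130777 to 79156301), the mitochondrial form, had 1, 4 and 4 counts in unpulsed CtrV, 4, 0 and 1 in OVA-pulsed CtrV, 9, 1 and 1 in unpulsed EKO-labelled and 18, 1 and 5 in OVA-pulsed EKO-labelled libraries. The highest values, 9 and 18, were both from EKO-labelled replicate 1, and the groups overlapped. The sums over a group were 5 counts in OVA-pulsed CtrV (0.0499 CPM, 95% Poisson interval 0.0162 to 0.116) and 24 in OVA-pulsed EKO-labelled cells (0.236 CPM, 0.151 to 0.351), intervals that cover counting error only. The unpulsed sums were 9 counts in CtrV (0.105 CPM, 0.0482 to 0.2) and 11 in EKO-labelled cells (0.122 CPM, 0.0608 to 0.218). Without an expression filter the log2 fold change was 2.09 with OVA (adjusted p of 0.082 in edgeR) and 0.11 without (adjusted p of 1). Of the exon bases of Arg2, 28.1% lie opposite Vti1b and Gm48780, and a strand setting for the counting is not given in the sources used here.

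**Figure D2:**
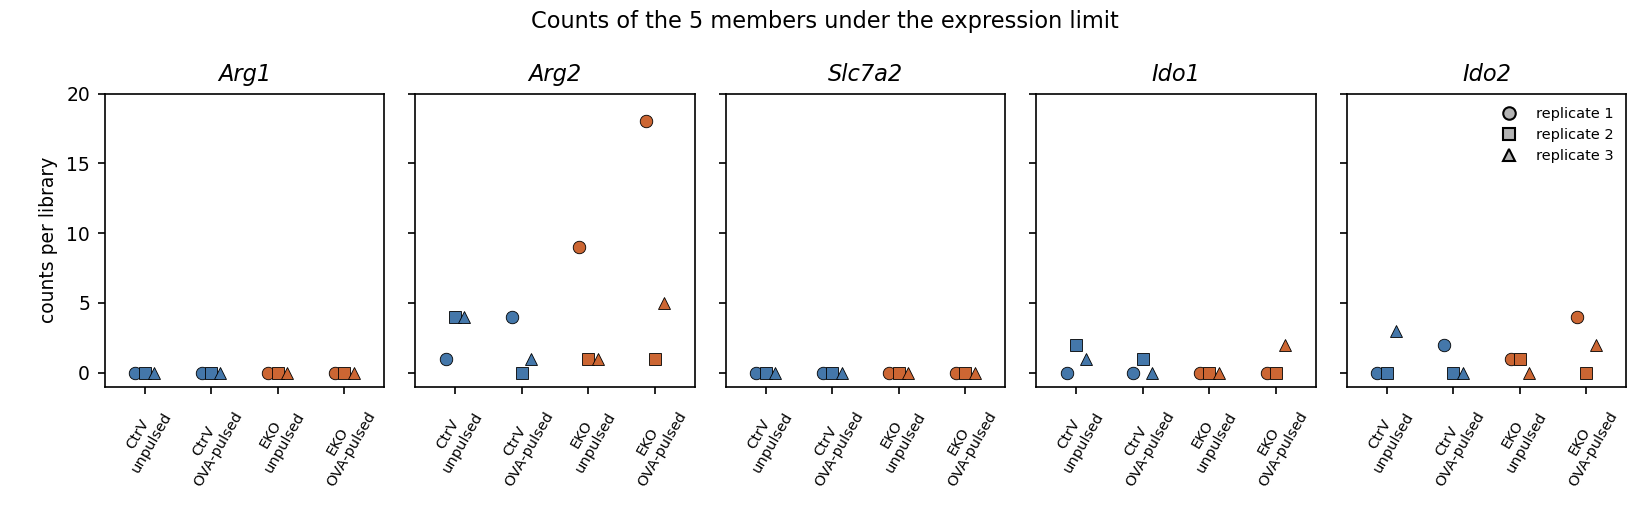
Counts per library of the 5 members under the expression limit, by group, with a point per library (shape for the replicate number, colour for the line). Arg1 and Slc7a2 are at 0 in every library, Ido1 and Ido2 do not exceed 4 counts, and Arg2 reaches 9 and 18 counts in the EKO-labelled libraries of replicate 1.

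The tryptophan-degrading enzymes were at the same floor. Ido1 (ENSMUSG00000031551, chromosome 8, 24584136 to 24597009) had 0 counts in 8 libraries and 6 counts in all, with no library above 2. Ido2 (ENSMUSG00000031549, chromosome 8, 24531892 to 24576333) had 0 counts in 6 libraries and 13 in all, with no library above 4. Their sums per group gave at most 0.0351 CPM for Ido1 and 0.0589 CPM for Ido2 (95% Poisson interval 0.0216 to 0.128, OVA-pulsed EKO-labelled cells). No difference between the groups was detectable at this depth for either gene.

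Acod1 (ENSMUSG00000022126, chromosome 14, 103046977 to 103056573), also known as Irg1, encodes aconitate decarboxylase. It had 2.64, 2.76 and 3.44 CPM in unpulsed CtrV and 4.65, 2.75 and 2.59 CPM in OVA-pulsed CtrV cells. In EKO-labelled cells it had 12.2, 24.2 and 20.3 CPM unpulsed and 20.6, 18.8 and 20.1 CPM OVA-pulsed. All EKO-labelled libraries were above all CtrV libraries, with unpulsed EKO-labelled replicate 1 the lowest of them. The difference was 5.86-fold with OVA (log2 fold change 2.55 ± 0.26 SE, adjusted p = 2.2e-05) and 6.38-fold without (2.67 ± 0.28, adjusted p = 2.4e-05). Without the EKO-labelled libraries of replicate 1 the log2 values were 2.68 and 3.04. Of the called members Acod1 was the least abundant and had the widest interval, 1.97 to 3.13 with OVA.

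Sod2 (ENSMUSG00000006818, chromosome 17, 13006846 to 13040063) encodes manganese superoxide dismutase. It had 86.8, 83.6 and 88.2 CPM in unpulsed and 88.3, 82 and 83.3 CPM in OVA-pulsed CtrV cells. In EKO-labelled cells it had 89.4, 87.6 and 84.5 CPM unpulsed and 93.4, 84.3 and 87.5 CPM OVA-pulsed. The lines overlapped. The log2 fold change was 0.06 with OVA (95% interval -0.04 to 0.17, adjusted p = 0.27) and 0.02 without (-0.09 to 0.12, adjusted p = 0.79), so differences beyond 0.17 lie outside both intervals. Of the 50-base words of Sod2, 17.6% also occur in AC166110.4 and 16% in Rps6ka2, so some of its reads may have been placed elsewhere.

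**Figure D3:**
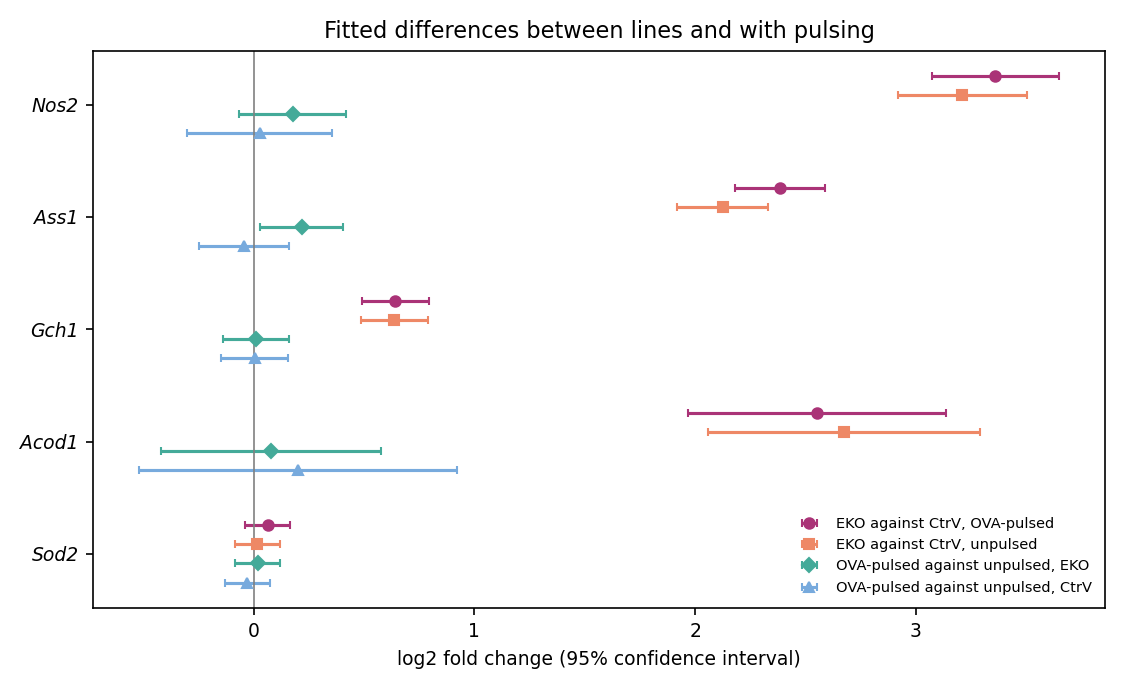
Fitted log2 fold changes with 95% confidence intervals of the 5 tested members, between the lines with and without OVA and between OVA-pulsed and unpulsed cells of each line. The line differences of Nos2 (3.36 and 3.21), Acod1 (2.55 and 2.67), Ass1 (2.39 and 2.12) and Gch1 (0.64 and 0.64) lie right of 0, while all pulsing differences are near 0 and none was called.

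Pulsing with OVA was compared next, since the line difference could depend on antigen. No member was called for OVA-pulsed against unpulsed cells, in CtrV or in EKO-labelled cells, nor for a dependence of the line difference on OVA. Of the 14079 tested genes 0% were called in each of these 3 comparisons by edgeR. At an unadjusted p under 0.05, edgeR had 231 genes for CtrV, 394 for EKO-labelled cells and 269 for the dependence, and DESeq2, which also called 0, had 44, 156 and 103. The only member among them was Ass1 in EKO-labelled cells, with a log2 fold change of 0.22 ± 0.09 SE, an unadjusted p of 0.028 and an adjusted p of 1 in edgeR. Ass1 was higher with OVA in 3 of 3 replicate pairs of that line, by 0.24, 0.16 and 0.25 on the log2 scale. Its pulsed and unpulsed libraries in that line overlapped (120 to 149 against 100.99 to 127 CPM). Nos2 differed by 0.40, -0.12 and 0.27 in the same pairs and Acod1 by 0.76, -0.37 and -0.01, so neither had a common direction. The dependence of the line difference on OVA was 0.15 for Nos2 (95% interval -0.26 to 0.56), 0.26 for Ass1 (-0.02 to 0.54) and -0.12 for Acod1 (-0.996 to 0.75). It was 0.00 for Gch1 (-0.21 to 0.22) and 0.05 for Sod2 (-0.10 to 0.19).

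Levels of different genes were compared per kb of exon union. In OVA-pulsed CtrV cells Ass1 led with a mean of 10.4 CPM per kb, followed by Sod2 with 8.45, Gch1 with 8.29, Nos2 with 1.42 and Acod1 with 1.27. Neighbours in that order overlapped over the 3 libraries, except for the gap between Gch1 and Nos2. In OVA-pulsed EKO-labelled cells Ass1 had 54.5, Nos2 14.6, Gch1 13, Sod2 8.83 and Acod1 7.56 CPM per kb, and no neighbours overlapped. Without OVA, Nos2 and Gch1 overlapped in EKO-labelled cells (11.4 to 15.5 and 11.4 to 13.7), as did Sod2 and Acod1 (8.44 to 8.94 and 4.64 to 9.22). Thus Nos2 stood below Gch1 in CtrV and at or above it in EKO-labelled cells. The place of Ass1 rests on the split of reads with Gm5424.

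**Figure D4:**
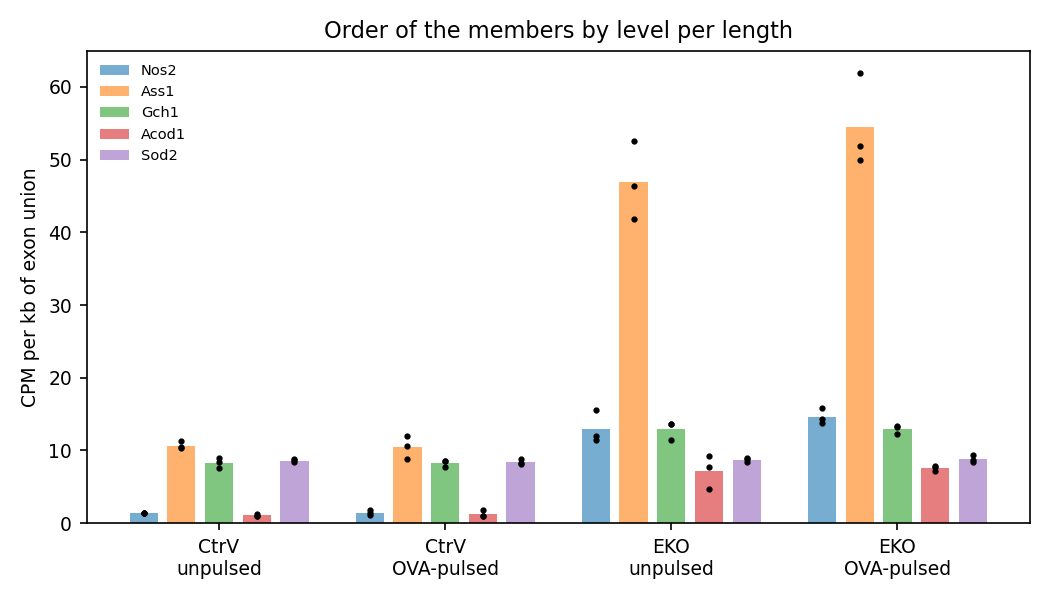
Level per length of the 5 tested members in CPM per kb of exon union, by group, as bars for the mean of 3 libraries with a dot per library. Ass1 is the highest in each group, and Nos2 rises from a mean of 1.42 in OVA-pulsed CtrV to 14.6 in OVA-pulsed EKO-labelled cells.

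The genes with the most similar pattern were found by the root-mean-square difference of centred log2 CPM over the 12 libraries, among 14078 other tested genes. For Nos2 these were Psd3 (0.21) and the langerin gene Cd207 (0.22). Ass1 was nearest to its pseudogene Gm5424 (0.07) and to Zhx2 (0.10), and Acod1 to the processed pseudogene AC151275.1 (0.13) and the interferon-stimulated gene Isg15 (0.15). Gch1 was nearest to St3gal4 (0.05) and Actr3 (0.06), and Sod2 to Ciapin1 and Chp1 (0.03 each). Among the members, Ass1 and Acod1 differed least among the 3 with large differences (0.35), then Nos2 and Acod1 (0.41) and Nos2 and Ass1 (0.53). The measure mainly reflects the size of the line difference, which all points share.

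The surrounding pathways were read from 9 lists with 141 genes, of which 123 were tested. With OVA, 41 rose and 31 fell in EKO-labelled cells, where 25.1% of all tested genes rose and 21.9% fell. Their median log2 fold change was -0.01, against 0.000645 over all tested genes. Without OVA, 42 rose and 35 fell, where 24.5% of all tested genes rose and 21.9% fell. The counts of each list below stand against these same shares.

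Around Nos2, the neuronal and endothelial synthases Nos1 and Nos3 stayed under the expression limit, with means up to 0.139 CPM. Of 7 genes of synthase isoforms and regulators 2 were tested, and 1 fell, Nosip, which encodes a synthase-interacting protein (50 ± 2.8 to 43.9 ± 2.5 CPM, SD, n = 3, log2 fold change -0.19, adjusted p = 0.016). No gene of tetrahydrobiopterin synthesis and recycling beside Gch1 rose. Of 6 tested 2 fell, Gchfr, the feedback regulator of GCH1 (1.25 ± 0.14 to 0.651 ± 0.13 CPM, log2 fold change -0.93, adjusted p = 0.0065), and Qdpr, which regenerates the cofactor (59.4 ± 2.9 to 46.6 ± 3.3 CPM, -0.35, adjusted p = 0.0035). Gchfr had 0.403 to 0.825 CPM in EKO-labelled libraries, under the expression limit. It was thus tested only through its CtrV level and could only be called lower. Of the exon bases of Qdpr, 18.6% lie opposite Gm42413. The list's median was -0.22.

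In arginine and citrulline supply 3 of 7 tested genes rose and 1 fell, with a median of 0.09. Glul, the glutamine synthetase gene, rose from 1.73 ± 0.39 to 11.5 ± 3 CPM (SD, n = 3, log2 fold change 2.73, adjusted p = 4.3e-06). Slc7a7, which encodes y+LAT1, the light chain of an arginine exchanger, rose from 66.7 ± 12 to 161 ± 31 CPM (1.27, adjusted p = 1.3e-05). Slc25a15, the mitochondrial ornithine carrier, fell from 6.74 ± 0.71 to 5.04 ± 0.49 CPM (-0.42, adjusted p = 0.00076). Asl, which follows Ass1 in the cycle, had 53 ± 3.1 and 56.6 ± 4.8 CPM and was not called (0.09, adjusted p = 0.26). It was named after its values were seen.

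Downstream of the arginases, 4 of 14 tested ornithine and polyamine genes rose and 3 fell, with a median of -0.07. Odc1, the ornithine decarboxylase gene, fell from 236 ± 35 to 99 ± 4.1 CPM (SD, n = 3, log2 fold change -1.25, adjusted p = 1.6e-06). At least 5% of its 50-base words are found in each of several other genes, most of them processed pseudogenes, the largest share being 11.7%. Smox, the spermine oxidase gene, rose from 72.4 ± 5.7 to 126 ± 14 CPM (0.79, adjusted p = 2.7e-06), and Pycr1, an enzyme of proline synthesis, from 2.14 ± 0.32 to 3.75 ± 0.91 CPM (0.78, adjusted p = 0.035).

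With Ido1 and Ido2 at the floor, the rest of tryptophan metabolism and the targets of the aryl hydrocarbon receptor were still read, and 5 of 16 tested genes rose and 7 fell, with a median of -0.20. Il4i1, a secreted oxidase of aromatic amino acids, had 29.4, 13 and 11.4 CPM in OVA-pulsed CtrV and 100.8, 40.1 and 54.3 CPM in OVA-pulsed EKO-labelled cells (log2 fold change 1.87 ± 0.29 SE, adjusted p = 0.00042). Replicate 1 was the highest in both lines, and 85.9% of the exon bases of Il4i1 lie opposite Atf5 and Tbc1d17. Qprt, which leads quinolinate to NAD, fell from 6.9 ± 0.81 to 1.02 ± 0.14 CPM (SD, n = 3, -2.76, adjusted p = 9.8e-08). Cyp1b1, a receptor target, fell from 3.93 ± 0.32 to 0.251 ± 0.14 CPM (-3.93, adjusted p = 7.2e-06). It had 0.066 to 0.477 CPM in EKO-labelled libraries, under the expression limit. It was thus tested only through its CtrV level and could only be called lower. Among the kynurenine enzymes, named after their values were seen, Kynu rose (0.65, adjusted p = 0.00011) while Kmo (-1.23, adjusted p = 0.00014) and Haao (-0.56, adjusted p = 0.00014) fell.

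In the citrate, itaconate and succinate list 1 of 23 tested genes rose and 8 fell, with a median of -0.08. Clybl, which takes part in the breakdown of itaconate-derived citramalyl-CoA, fell from 1.54 ± 0.2 to 0.812 ± 0.092 CPM (SD, n = 3, log2 fold change -0.93, adjusted p = 0.0052). It had 0.706 to 0.869 CPM in OVA-pulsed and 0.733 to 1.09 CPM in unpulsed EKO-labelled libraries, too low to pass the expression filter by themselves. Clybl was thus tested only through its CtrV level and could only be called lower. Idh2, the mitochondrial isocitrate dehydrogenase gene, fell from 105 ± 9.2 to 66.2 ± 5.3 CPM (-0.67, adjusted p = 1e-05), and Fh1, the fumarase gene, from 56.6 ± 0.59 to 40.1 ± 1.4 CPM (-0.50, adjusted p = 0.00019).

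Beside Sod2, 7 of 24 tested superoxide, peroxide and NRF2 genes rose and 6 fell, with a median of -0.07. Slc7a11, the cystine importer gene, rose from 23.8 ± 10 to 77.4 ± 10 CPM (SD, n = 3, log2 fold change 1.74, adjusted p = 4.7e-06). Gsr, the glutathione reductase gene, rose from 96.4 ± 6 to 155 ± 27 CPM (0.68, adjusted p = 0.00012), and Nfe2l2, which encodes NRF2, from 84.1 ± 17 to 126 ± 14 CPM (0.59, adjusted p = 0.00012). Means of other genes of the list, named after their values were seen, went both ways with OVA. Srxn1 (31 to 44.4 CPM) and Txnrd1 (246 to 283 CPM) were higher in EKO-labelled cells. Hmox1 (51.7 to 44.7 CPM), Gclm (550 to 497 CPM), Gpx1 (620 to 515 CPM) and Gpx4 (36.7 to 28.4 CPM) were lower. Only means are given for these genes, without calls. Of the 50-base words of Gpx4, 34.7% also occur in Gpx4-ps2, so some of its reads may have been placed elsewhere. Of the 7 genes of the phagocyte NADPH oxidase, 3 rose and 1 fell, with a median of 0.29. These were Ncf1, which encodes p47phox (0.89, adjusted p = 6.7e-06), the GTPase gene Rac2 (0.60, adjusted p = 8.5e-06) and Ncf4, which encodes p40phox (0.32, adjusted p = 0.00084), while Rac1 fell (-0.23, adjusted p = 0.0021, named after its value was seen). Of the exon bases of Ncf1, 11.1% lie opposite Gtf2ird2, and of those of Rac1, 51.4% lie opposite Daglb.

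The list of transcription factors and cytokine signal genes that are known to act on members of the panel had the highest median, 0.61. Of its 24 tested genes 18 rose and 2 fell with OVA, and 17 rose and 2 fell without, against 25.1% of all tested genes higher and 21.9% lower with OVA and 24.5% and 21.9% without. The list was chosen with earlier results of these data known, so these counts are descriptive. Whether its genes acted on the members here was not tested. Irf7, an interferon response factor, rose from 46.6 ± 18 to 235 ± 33 CPM (SD, n = 3, log2 fold change 2.28, adjusted p = 0.00035). Nfkbiz, which encodes the NF-kB cofactor IkB-zeta, rose from 115 ± 23 to 542 ± 8.6 CPM (2.24, adjusted p = 4e-07), and Socs3, a feedback inhibitor of cytokine receptors, from 25.4 ± 4.5 to 77.7 ± 18 CPM (1.60, adjusted p = 3.6e-05). The receptor chains for interferon gamma, named after their values were seen, went opposite ways: Ifngr1 fell (-1.11, adjusted p = 1e-07) and Ifngr2 rose (0.96, adjusted p = 3.3e-07).

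**Figure D5:**
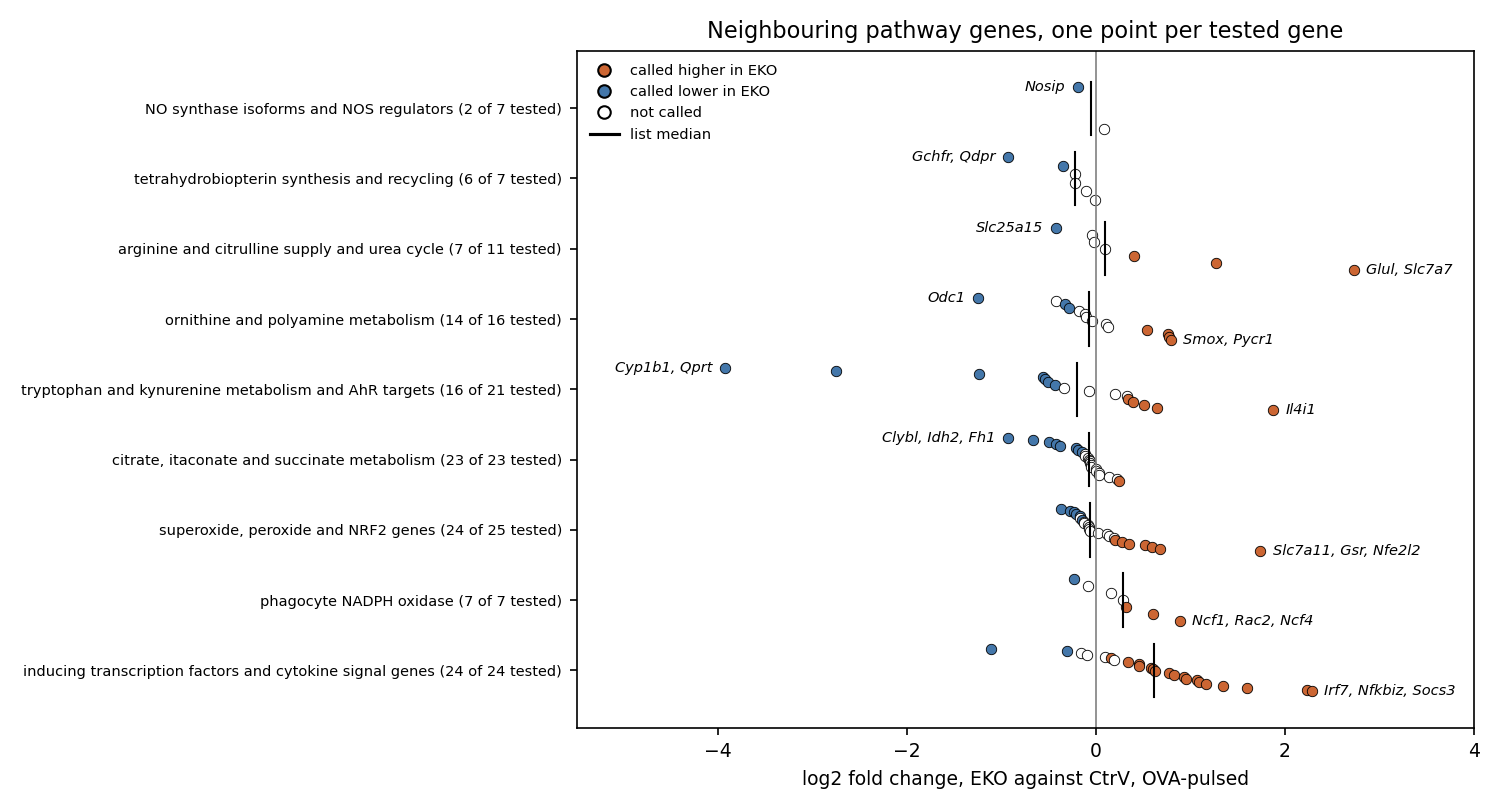
Log2 fold change of the tested genes of the 9 pathway lists between EKO-labelled and CtrV cells, OVA-pulsed, with a point per gene coloured by call and a line at each list's median, the labels naming up to 3 called genes per list with the outermost first. The signal and transcription factor list lies furthest right (median 0.61), and the lists of nitric oxide, cofactor and citrate-cycle genes beside the members lie near 0 or slightly left of it (medians -0.05, -0.22 and -0.08).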

How the data were processed

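RNA was sequenced from 12 Sp37A3 libraries, and depth is given as total counts. The deposited values are unnormalised counts, 1 per gene and library, made by the authors. By the study's methods and the submitters' processing notes, reads were aligned to mm10 with STAR, a read that fitted several places was reported at 1 location, and read ends were counted on the exons of each gene with featureCounts. A single placement can split reads between a gene and its pseudogene. Gene names and positions came from the GENCODE annotation of GRCm38, which matched 55141 of 55401 identifiers.

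Counts were tested with edgeR 4.0.16 (R 4.3.3), TMM normalization and a quasi-likelihood fit over all 12 libraries, with the group and the replicate number as terms. The 14079 genes whose log2 CPM exceeded 0 in 2 or more libraries were tested, with Benjamini-Hochberg adjustment over all of them and a call at an adjusted p under 0.05. Whether replicates came from separate cultures is not given in the labels, so p-values measure only the spread between these libraries, which may be technical. Within each group, libraries were further apart than counting error alone gives (chi-square per degree of freedom 4.29 to 38.3). Replicate numbers come from the labels and the study's methods name them as a covariate. Libraries of the lines with the same number had deviations from their group means that correlated at 0.45, 0.295 and 0.298 with OVA and 0.0664, -0.00915 and 0.271 without. Pulsed and unpulsed libraries with the same number correlated at 0.711, 0.357 and 0.424 in EKO-labelled and at 0.0893, 0.185 and 0.385 in CtrV cells, so every pair was over 0.1 in the OVA-pulsed lines and within EKO-labelled cells, but not in the others.

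The results were recomputed with DESeq2 1.42.0, with RLE or upper-quartile scaling, bias-adjusted deviances, other filters, no replicate block, only the compared libraries, a fold limit and leaving out libraries. Copies were found as shared 50-base words of annotated transcripts. Named genes are the 10 members, Siglece, up to 3 called genes per list with the largest log2 fold change between the OVA-pulsed lines, and the 2 nearest patterns per tested member. The members and lists were chosen with earlier results of these data known.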

Additional observations from a re-analysis of the deposited data

How the results depend on the processing

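The calls of Nos2, Ass1 and Acod1 between the lines held under every alternative run, with log2 fold changes in OVA-pulsed cells of 3.25 to 3.54, 2.31 to 2.43 and 2.36 to 3.01. The extremes came from leaving out libraries. Gch1 (0.56 to 0.73) lost its call only when an absolute log2 difference of at least 1 was also asked for, which also left 16 of the 72 called pathway genes. That limit reduced the calls over all genes from 6619 to 1268 with OVA and from 6537 to 1241 without, by its construction. Sod2 was not called under any alternative (0.03 to 0.07 with OVA). No called value reversed.

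Without the replicate block, 4 members were again called in each line comparison and 64 pathway genes with OVA, and the genes called over the table were 5413 with OVA and 5337 without. The block changed no member's call. The log2 fold change of Nos2 in OVA-pulsed cells was then 3.35 (adjusted p = 3.4e-08). Leaving out both EKO-labelled libraries of replicate 1 gave 77 called pathway genes and the same 4 members. For Arg1, Arg2, Slc7a2, Ido1 and Ido2 the depth is the limit, since a level of a few counts per library could not be compared.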
